A study of Mus musculus with 4 samples.

Results

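The messenger RNAs of 7 genes of the DNA replication machinery, Mcm2, Mcm3, Mcm4, Mcm5, Mcm6, Mcm7 and Pcna, were followed by read number and poly(A) tail length in mouse embryonic stem cells. The members were taken by gene symbol from a table with 1 row per read, and every read with a tail length above 0 was kept. They gave 3620 of 1903919 reads and 7 of 13831 gene symbols. The cells were J1 embryonic stem cells, grown in serum with LIF and with no treatment, and were either wild type (WT) or carried a knockout (KO) of Mov10, an RNA helicase. There were 2 libraries of each, WT 1 and WT 2 against KO 1 and KO 2, and values given as a pair follow these numbers. RNA was selected on oligo(dT) beads and sequenced directly on nanopores, so that 1 read stands for 1 RNA molecule with its tail. The labels name neither the clones behind the knockout nor separate cultures, so p-values speak only of these libraries.

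Mcm2 to Mcm7 are related ATPases that join into a single ring. In G1 phase the origin recognition complex, Cdc6 and Cdt1 load this ring onto DNA as an inactive pair, a step called licensing, and in S phase the ring becomes the motor of the replicative helicase. Pcna is the sliding clamp that holds DNA polymerases and their partners on the template behind the fork. Genes of this group are classic targets of E2F transcription factors, and embryonic stem cells, which cycle fast with a short G1 phase, express them strongly.

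The promoters show one feature that the choice of genes did not use. The RefSeq promoter table (GRCm38.p6, windows of 250 bases before and 50 after a gene's start) held 7 windows for 6 of the members, with 2 for Mcm7. E2F words, searched as TTTCCCGC, TTTCGCGC, TTTGCCGC and TTTGGCGC on both strands, occurred in 4 of these windows, against 2.26% of all 32851 windows in the table. They belonged to Mcm3, Mcm5, Mcm6 and Mcm7. The CCAAT box, searched as CCAAT on both strands, occurred in all 7 windows, against 37.4% of all windows, and the GC box, GGGCGG on both strands, in 6 of 7, against 35.7%. The stretches below were chosen because they hold these matches; capitals mark E2F words and CCAAT boxes, which read ATTGG on the other strand, and each stretch runs 5′ to 3′ along the gene. In Mcm5 and in the first match of Mcm6, words of both strands overlap and form 1 longer run.
Mcm2, chr6:88898921-88898980, minus strand: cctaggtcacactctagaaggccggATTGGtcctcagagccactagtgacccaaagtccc
Mcm3, chr1:20820266-20820295, minus strand: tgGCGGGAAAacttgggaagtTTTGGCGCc
Mcm5, chr8:75109349-75109508, plus strand: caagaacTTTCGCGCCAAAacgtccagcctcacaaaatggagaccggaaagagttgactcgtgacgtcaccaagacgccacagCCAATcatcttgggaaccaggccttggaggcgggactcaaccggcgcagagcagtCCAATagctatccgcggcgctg
Mcm6, chr1:128359706-128359825, minus strand: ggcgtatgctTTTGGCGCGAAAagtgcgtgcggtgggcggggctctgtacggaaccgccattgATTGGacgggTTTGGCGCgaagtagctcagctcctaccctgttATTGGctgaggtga
Mcm7, chr5:138171884-138172063, minus strand: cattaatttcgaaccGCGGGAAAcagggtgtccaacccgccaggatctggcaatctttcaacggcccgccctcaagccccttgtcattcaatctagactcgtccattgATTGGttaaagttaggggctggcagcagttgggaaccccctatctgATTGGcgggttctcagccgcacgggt
Pcna, chr2:132253241-132253300, minus strand: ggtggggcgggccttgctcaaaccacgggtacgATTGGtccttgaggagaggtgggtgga
The Mcm3 stretch begins 17 bases after the start, and the others end before it. Matches are descriptions of letters and show no binding.

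The libraries held from 351133 to 683239 reads. Mov10 had 26 reads in WT 1 and 14 in WT 2, against 0 in KO 1 and 1 in KO 2. Pou5f1, Nanog and Sox2 were read in every library. The 8 pluripotency markers summed to 9098 and 9350 reads per 1000000 (RPM) in WT and to 7981 and 6751 RPM in KO. Both KO libraries thus lay lower, as they did for Pou5f1 (1540 and 1433 RPM in WT, 1251 and 1235 RPM in KO). Nanog overlapped between the genotypes (273 and 424 RPM in WT, 275 and 256 RPM in KO). So did Sox2 (457 and 330 RPM in WT, 341 and 198 RPM in KO). The part of these differences in the results was not tested. Of 8 fibroblast markers only Thy1 was read, at 5.70 to 13.95 RPM, and Col1a1, Col1a2, Col3a1, Dcn, Lum, Postn and Acta2 had 0 reads. Markers of endoderm (3 of 6 read) summed to at most 4.55 RPM, those of mesoderm (3 of 5 read) to at most 9.10 RPM, and those of primed and early neural cells (4 of 6 read) to between 59.2 and 128.8 RPM. Tails were longer in WT 2 and KO 1 (library medians of 105.6 and 105.8 nt) than in WT 1 and KO 2 (97.3 and 98.1 nt), a split that crosses the genotypes. WT 1 stood apart in another respect. It was seen over 1083 genes with 20 reads or more in every library and a set minimum share of reads off their most read transcript. In WT 1 a median of 19.0% of a gene's reads lay off that transcript, against 28.6% in both WT 2 and KO 2 and 30.3% in KO 1.

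Read number was compared first. The members' share of a library's reads was 0.176% and 0.193% in WT and 0.195% and 0.194% in KO. Read numbers below are RPM after median-of-ratios scaling, which sets the typical gene equal between libraries. A direct RNA read counts a molecule from its 3′ end, so genes were compared with no correction for length; broken molecules were not accounted for. In such bulk RNA, fewer cells that make a transcript and less of it per cell cannot be told apart.

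Pcna, the clamp, was read most often. It had 748.7 and 747.5 RPM in WT and 719.2 and 701.6 RPM in KO, from 269 to 504 reads. Mcm6, a motor subunit of the ring, came next with 292.4 and 283.4 RPM in WT and 346.7 and 324.3 RPM in KO. All 4 Pcna values lay above all 4 Mcm6 values, with a mean ratio of 2.35 within libraries.

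Mcm3, Mcm5 and Mcm7 formed a middle tier. Mcm3, the subunit that first meets the loading complex, had 229.4 and 250.1 RPM in WT and 249.7 and 240.5 RPM in KO. Mcm5, which closes the ring's gate with Mcm2, had 267.2 and 227.9 RPM in WT and 232.6 and 167.7 RPM in KO. Mcm7, part of the motor with Mcm4 and Mcm6, had 229.4 and 191.7 RPM in WT and 196.9 and 233.9 RPM in KO. Their means over the 4 libraries, 242.4 RPM ± 9.75 for Mcm3, 223.8 RPM ± 41.3 for Mcm5 and 213.0 RPM ± 21.7 for Mcm7 (SD, n = 4), did not differ beyond the spread of the differences within libraries.

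Mcm4 and Mcm2 were read least. Mcm4, a target of the Cdc7 kinase that fires origins, had 105.9 and 122.3 RPM in WT and 107.0 and 92.7 RPM in KO. Mcm2, which also carries histones H3 and H4, had 75.6 and 61.1 RPM in WT and 52.8 and 79.4 RPM in KO, from only 22 to 37 reads a library. The mean ratio within libraries was 1.99 from Mcm7 to Mcm4 and 1.60 from Mcm4 to Mcm2, each with the same order in all 4 libraries. Subunits that stand in equal number in the ring thus differed up to 4.68-fold in read number, from Mcm6 to Mcm2. Of the 21 pairs of members, 18 kept their order in all 4 libraries with a mean log2 difference above its SD.

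**Figure D1:**
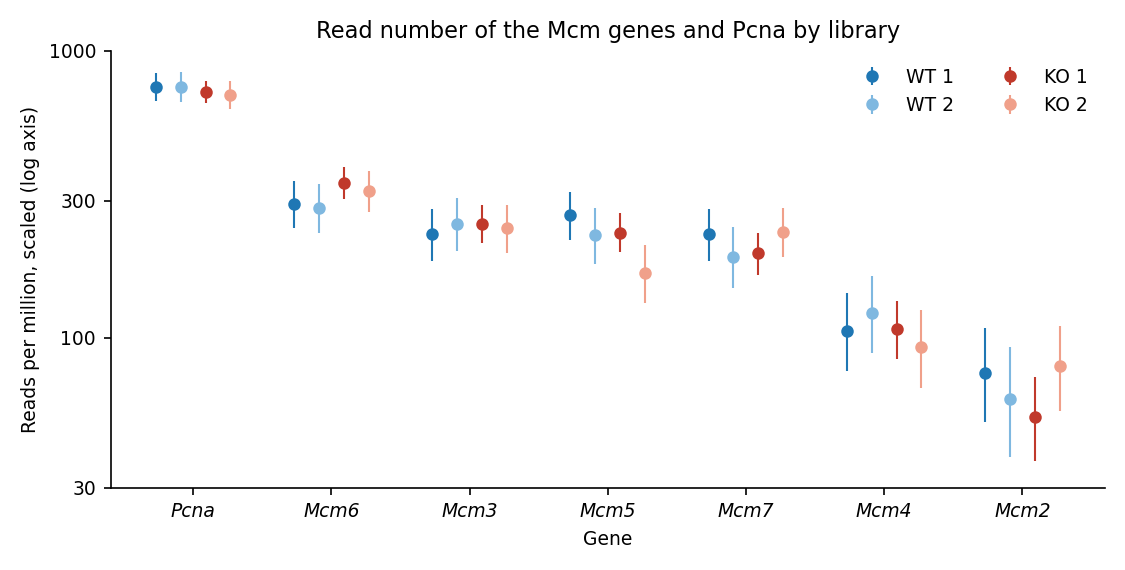
Scaled RPM (log axis) of each member in the 4 libraries; bars are exact 95% binomial intervals and cover counting error only. Pcna lies highest, at 701.6 to 748.7 RPM, and Mcm2 lowest, at 52.8 to 79.4 RPM. The points of Mcm5 spread from 167.7 RPM in KO 2 to 267.2 RPM in WT 1.

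Between genotypes, none of the 7 members passed the test for read number. The test was limma's voom, run where a gene averaged 10 reads or more a library (4815 genes), with a threshold of 0.05 on the Benjamini-Hochberg adjusted p, and it called 0% of genes (498 genes, or 10.3%, had an unadjusted p under 0.05, none of them a member). The log2 change in read number, KO minus WT, was 0.22 for Mcm6, 0.03 for Mcm3, 0.02 for Mcm7, -0.07 for Pcna, -0.12 for Mcm2, -0.18 for Mcm4 and -0.31 for Mcm5, with standard errors from 0.23 (Pcna) to 0.35 (Mcm2). Values were above 0 for 3 of 7 members, against 49.4% of all tested genes. With library totals as the scale, Pcna had 0.04, at a median over all genes of 0.11. Adjusted p-values ran from 0.734 for Mcm5 to 0.985 for Mcm7, and under the alternatives tried from 0.400 (Mcm5) to 0.999. The 95% interval for Pcna reached from a 0.680-fold to a 1.33-fold ratio of KO to WT, and that for Mcm2 from 0.551-fold to 1.54-fold. Such intervals rest on the spread between 2 libraries a genotype and on a spread that limma shares over all tested genes.

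The KO libraries lay above both WT libraries for 1 member, Mcm6, against 20% of all tested genes, and below both for 1 member, Pcna, against 20.5%. That made 2 of 7 members without overlap in either direction, against 40.5% of all tested genes. In RPM before scaling, Pcna overlapped (675.7 and 766.1 in WT, 737.7 and 739.5 in KO). Mcm6 did not (263.9 and 290.5 in WT, 355.7 and 341.9 in KO). The median log2 change over the 7 members was -0.07 and that over all tested genes -0.01.

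Tail length was compared next, as the median over a gene's reads in each library. The members' tails tended to be longer than those of the typical tested gene, in some cases by little. The median of the members' medians was 109.7 and 118.0 nt in WT and 119.8 and 104.1 nt in KO. That of the tested genes was 102.1 and 109.35 nt in WT and 109.97 and 101.955 nt in KO. Mcm6 lay near the middle, from percentile 51.1 to 67.2 of tested genes. The medians of 5 members, Mcm2, Mcm4, Mcm6, Mcm7 and Pcna, lay above the median of the 1935 tested genes in all 4 libraries (101.955 to 109.97 nt), which was the case for 22.7% of all tested genes. Mcm3 lay below it in KO 2, and Mcm5 in WT 1 and in KO 2. Among all 3620 reads of the members, tails of 150 nt or more made up 26.8% and 34.2% in WT and 31.4% and 25.1% in KO. Over all reads of the same libraries they made up 18.8% and 24.0% in WT and 23.7% and 19.6% in KO. The median over all reads lay below that over the tested genes in every library (97.3 against 102.1 nt in WT 1), so all reads are a shorter background.

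Averaged over the 4 libraries, Mcm4 and Mcm2, the members with the fewest reads, had the longest median tails, but in WT alone Mcm7 (124.5 nt) exceeded Mcm4 (119.2 nt) and Mcm2 (116.5 nt). With the arithmetic mean over reads, Mcm7 (129.5 nt) exceeded Mcm2 (126.6 nt). Mcm4 had medians of 120.5 and 118.0 nt in WT and 137.8 and 130.4 nt in KO, on 42 to 75 reads. Its place among the tested genes ran from the 68.7th to the 94.7th percentile. Mcm2 had 118.0 and 115.0 nt in WT and 145.9 and 121.4 nt in KO. Its intervals were wide, as in KO 1, where the exact 95% interval of the median ran from 108.1 to 199.9 nt. For both genes the KO libraries lay above both WT libraries.

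Mcm7 and Pcna lay in the middle. Mcm7 had 114.3 and 134.6 nt in WT and 115.6 and 104.1 nt in KO, so that WT 2 was highest and KO 2 lowest. Pcna, with the most reads, had 109.7 and 127.5 nt in WT and 119.8 and 103.3 nt in KO; WT 2 and KO 1, the libraries with longer tails in general, were its highest. Relative to the median of all reads in the library, Pcna tails were 12.4 and 21.9 nt longer in WT and 13.98 and 5.24 nt longer in KO.

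Mcm6, Mcm3 and Mcm5 had the shortest tails of the group. Mcm6 had 102.6 and 117.4 nt in WT and 115.0 and 104.3 nt in KO. Mcm3 had 105.9 and 112.0 nt in WT and 122.0 and 93.6 nt in KO, where KO 1 and KO 2 were its extremes. Mcm5 varied most: it had 80.9 and 119.4 nt in WT and 110.6 and 99.8 nt in KO, and the WT 1 value lay at percentile 7.03 of tested genes. The interval of the WT 1 value, 70.2 to 107.3 nt on 106 reads, overlapped that of WT 2, 101.7 to 140.8 nt on 82 reads.

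In order of the mean over the 4 libraries the members were Mcm4 (126.7 nt ± 9.15), Mcm2 (125.1 nt ± 14.1), Mcm7 (117.2 nt ± 12.7), Pcna (115.1 nt ± 10.7), Mcm6 (109.8 nt ± 7.45), Mcm3 (108.4 nt ± 11.9) and Mcm5 (102.7 nt ± 16.6; SD, n = 4 for each). None of the 6 neighbouring pairs in this order kept 1 sign in all 4 libraries. Of all 21 pairs, 3 did so with a mean difference above its SD: Mcm4 exceeded Mcm6 by 0.21 and Mcm3 by 0.23, and Mcm2 exceeded Mcm3 by 0.21 on the log2 scale. No test is given for the order, since 4 libraries allow too few arrangements.

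**Figure D2:**
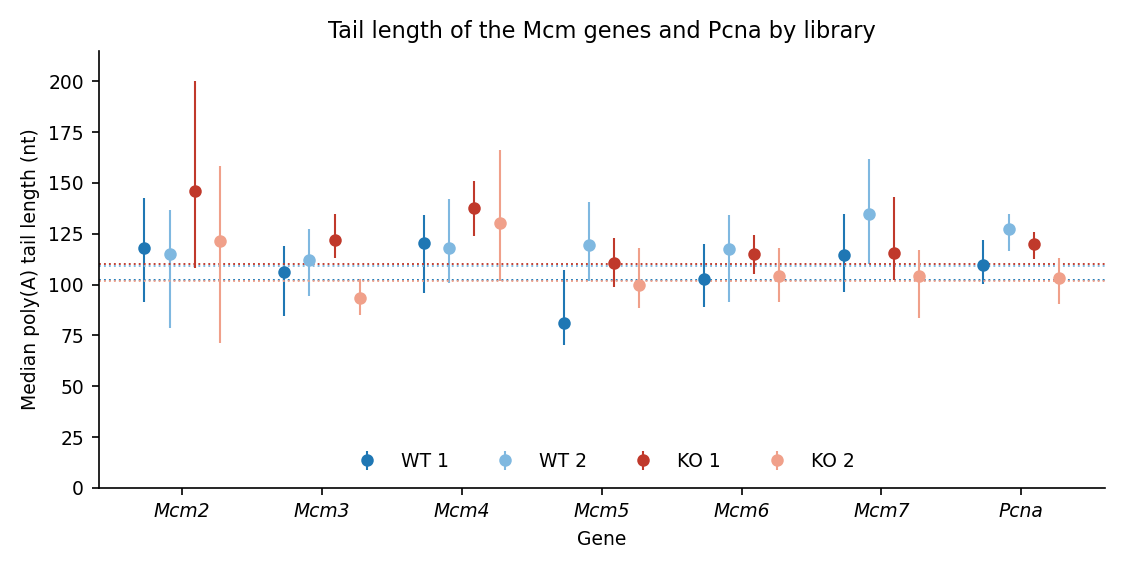
Median tail length in nt of each member in the 4 libraries, with exact 95% binomial intervals of the median over reads; dotted lines give the median of the 1935 tested genes in each library. Mcm2 and Mcm4 have KO points above both WT points, and Mcm5 in WT 1, at 80.9 nt, is the lowest point.

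Tail length between genotypes was tested with limma on log2 of the gene medians, over 1935 genes read 20 times or more in every library. No gene passed (0% called; 45 genes, or 2.33%, had an unadjusted p under 0.05, none of them a member), and each of the 7 members had an adjusted p of 0.9998. The log2 change in tail length, KO minus WT, was 0.19 for Mcm2, 0.17 for Mcm4 and 0.10 for Mcm5, and -0.0027 for Mcm6, -0.03 for Mcm3, -0.09 for Pcna and -0.18 for Mcm7. Standard errors ran from 0.12 (Pcna) to 0.23 (Mcm2). They followed a gene's mean read number and not its own spread between libraries. Mcm5, with WT medians of 80.9 and 119.4 nt, had 0.15, while Mcm4, with 120.5 and 118.0 nt, had 0.18. The p-values and intervals for tail length share this limit. Values were above 0 for 3 of 7 members, against 51.8% of all tested genes. The 95% interval of the KO to WT ratio was 0.839-fold to 1.56-fold for Mcm2, 0.881-fold to 1.44-fold for Mcm4, 0.719-fold to 1.09-fold for Mcm7 and 0.796-fold to 1.11-fold for Pcna.

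Groups that did not overlap, with KO above WT, were found for 2 of 7 members, Mcm2 and Mcm4, against 14.7% of tested genes; KO below WT was found for 0 members, against 11.8%. In either direction it was 2 of 7, against 26.5%. Single libraries set the sign for several members. Without KO 2 the log2 change was 0.16 for Mcm3 and 0.07 for Mcm6, and without KO 1 it was -0.22 and -0.07. Mcm5 had -0.18 without WT 1 and 0.38 without WT 2, and Pcna had -0.20 without WT 1 and 0.02 without WT 2. Mcm2, Mcm4 and Mcm7 kept their sign with each library left out, within 0.06 to 0.32, 0.13 to 0.21 and -0.30 to -0.06. When single libraries were paired, KO 1 exceeded WT 1 for 7 of 7 members (73.0% of all tested genes) and KO 2 exceeded WT 2 for 2 of 7 (30.4%). KO 1 exceeded WT 2 for 3 of 7 (52.1%) and KO 2 exceeded WT 1 for 4 of 7 (49.5%).

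**Figure D3:**
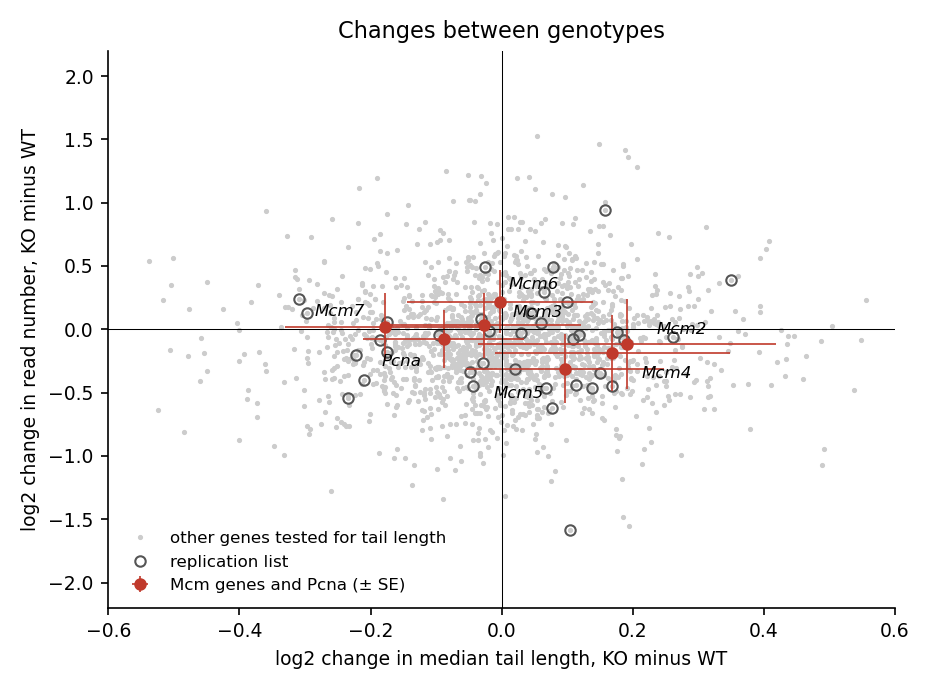
Log2 change in tail length (x) against log2 change in read number (y), KO minus WT, for the 1935 genes tested for tail length, with 36 genes of a replication list as circles and the 7 members with standard errors. The members lie within 0.19 of 0 for tail length and within 0.31 for read number, among the other genes.

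The ends of the distributions were also compared. Tails under 30 nt were rare. Mcm4 had 0 of 42 (a count of 0 allows up to 8.41%, the exact 95% limit) and 2 of 44 reads in WT. In KO it had 0 of 75 (up to 4.7995%) and 0 of 42 (up to 8.41%). Mcm2 had 0 of 30 (up to 11.6%) and 0 of 22 (up to 15.4%) in WT and 2 of 37 and 2 of 36 in KO. The highest share was that of Mcm3 in KO 2, 9.17% (exact 95% interval 4.49 to 16.2%), against 1.71% (0.355 to 4.93%) in KO 1. In Pcna the share of short tails was 4.38% and 2.97% in WT and 2.18% and 4.72% in KO.

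The order of the members by tails of 150 nt or more differed between libraries: in WT the mean share was highest in Mcm7 (38.0%) and Pcna (33.7%), and in KO in Mcm4 (43.8%) and Mcm2 (43.8%). For Mcm4 they made up 31.0% (interval 17.6 to 47.1%) and 29.5% (16.8 to 45.2%) in WT. In KO they made up 40% (28.9 to 52.0%) and 47.6% (32.0 to 63.6%). For Mcm2 they made up 30% and 22.7% in WT and 48.6% and 38.9% in KO. Both genes had higher shares in both KO libraries, by 13.6 and 17.4 percentage points, and for each the two-sided exact permutation test gave p = 0.3333, the smallest that 2 libraries against 2 allow. In Mcm6 the share was steady, at 25.9% and 30.4% in WT and 27.2% and 24.5% in KO. With 6 arrangements of the libraries, this exact test could not pass 0.05 for any share of long or short tails.

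**Figure D4:**
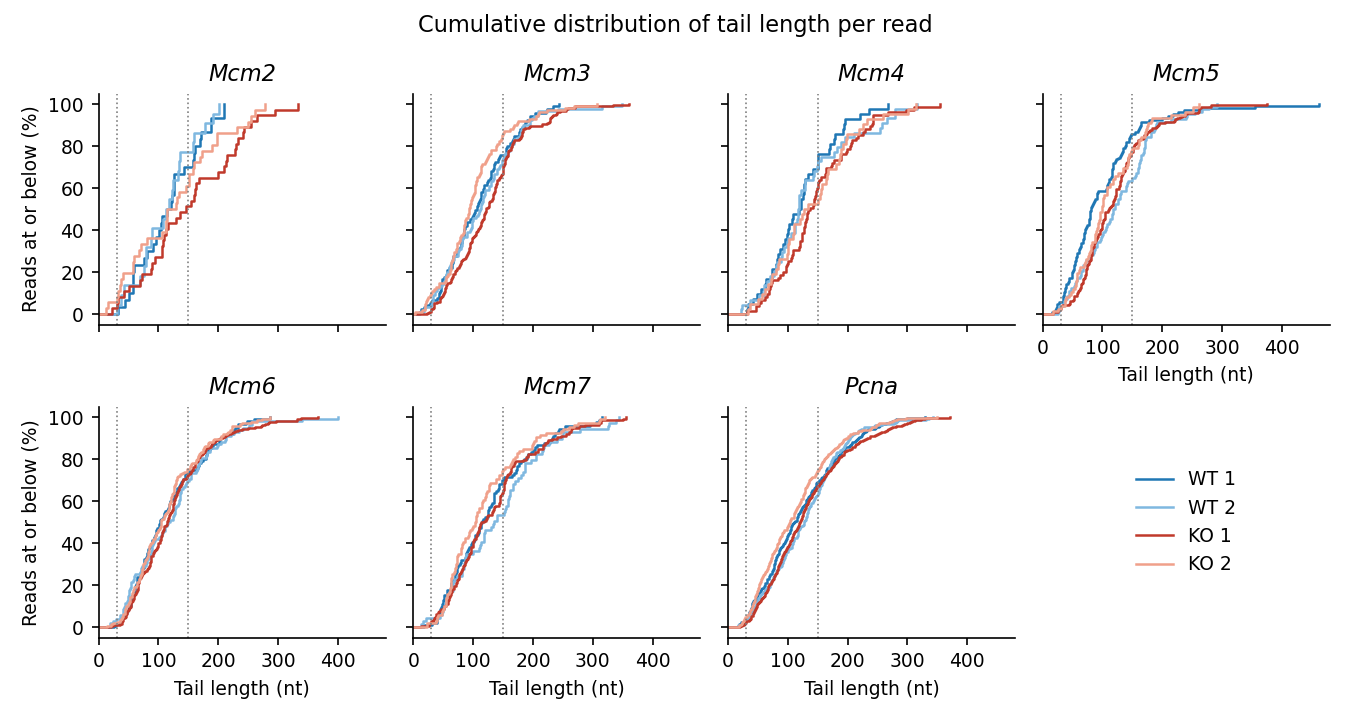
Share of reads (%, y) with a tail at or below a given length (nt, x) for each member, 1 line per library; dotted lines mark 30 and 150 nt. The lines of Pcna and Mcm6 lie close together, those of Mcm2 and Mcm4 are lower in KO around 150 nt, and WT 1 rises earliest for Mcm5.

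The reads of the members lay on 14 Ensembl transcripts, none of which carried another symbol. Mcm2 and Mcm4 each had 1 transcript. For the other 5, reads off the most read transcript made up 6.13% (exact 95% interval 4.47 to 8.17%) and 11.6% (9.17 to 14.4%) in WT. In KO they made up 12.8% (10.9 to 14.8%) and 12.0% (9.80 to 14.6%). WT 1 was thus lowest in this pooled share, as it was in the median share over the 1083 genes above. Which exons these transcripts hold is not described here, because no annotation of transcript structure was used.

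Pcna showed this most clearly. Its second transcript, ENSMUST00000140338, held 3 of 297 (1.01%) and 26 of 269 reads (9.67%) in WT, and 46 of 504 (9.13%) and 37 of 318 (11.6%) in KO. The interval of WT 1, 0.209 to 2.92%, lay below those of the other 3 libraries, the lowest of which began at 6.41%. Mcm3 had 9.89% in WT 1 (4.62 to 17.9%) against 25.6%, 26.3% and 22.0% in WT 2, KO 1 and KO 2. Mcm5 did not share this order: its minor transcripts held 25.5% and 15.9% in WT and 22.1% and 25% in KO.

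Minor transcripts also differed in tail length. The minor transcript of Mcm7, ENSMUST00000125316, had medians of 197.2 and 154.2 nt in WT, on 4 and 7 reads, and of 217.2 and 186.4 nt in KO, on 17 and 6 reads. The main transcript, ENSMUST00000000505, had 113.8 and 131.3 nt in WT and 109.0 and 98.7 nt in KO, on 62 to 121 reads. The minor one was thus longer in all 4 libraries, on few reads. For Pcna the minor transcript had 161.3 nt in WT 2 and 146.7 nt in KO 1, above the main transcript's 125.4 and 118.2 nt, but 104.4 nt in KO 2, against 102.5 nt. In WT 1 it had 68.9 nt on 3 reads, below the main transcript's 110.9 nt, so the order differed between libraries. For Mcm5 the second transcript had 92.4 nt in KO 1 and 87.5 nt in KO 2, below the 118.4 and 107.4 nt of the main one, while in WT 1 and WT 2 the 2 transcripts differed by little (80.9 and 80.8 nt, then 122.1 and 120.5 nt).

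**Figure D5:**
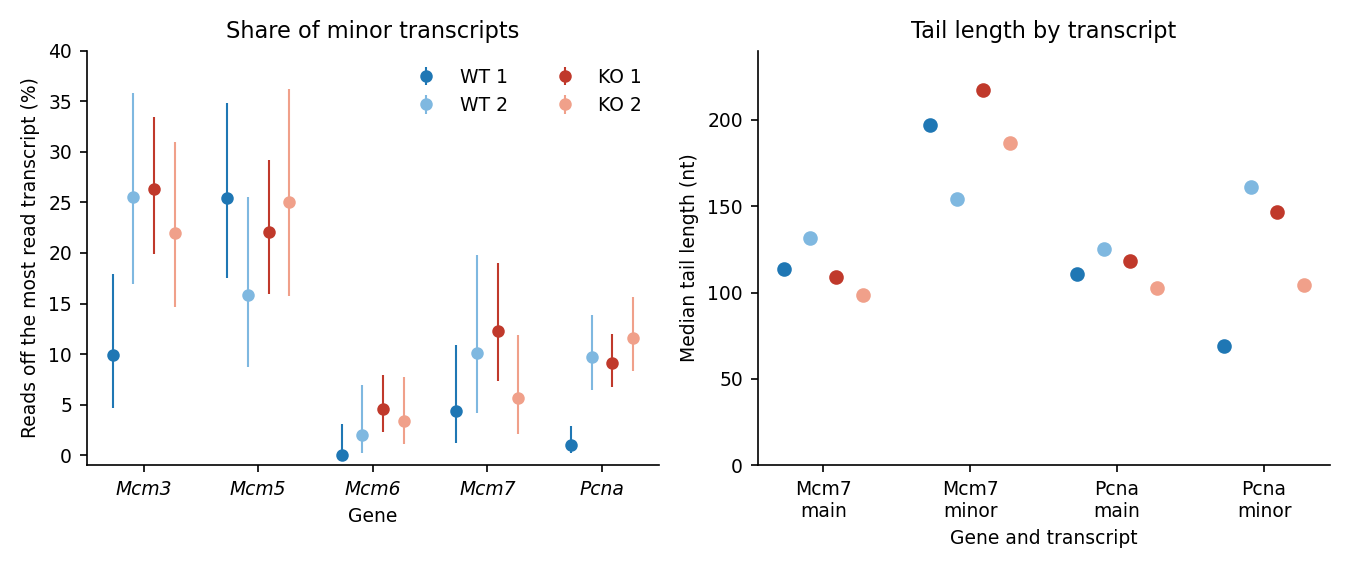
Left, share (%) of each gene's reads that lay off its most read transcript, with exact 95% binomial intervals; right, median tail length (nt) on the main and minor transcripts of Mcm7 and Pcna, 1 point per library. WT 1 is lowest for Mcm3, Mcm6, Mcm7 and Pcna but not for Mcm5, and the minor transcript of Mcm7 lies above the main one in each library.

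The deposited table also sorts genes by binding of Mov10 and by m6A, a methylated adenosine in messenger RNA; how these classes were made is not given in the sources used here. Mcm3 and Mcm6 are classed as Mov10 targets with m6A. Their log2 changes were -0.03 and -0.0027 for tail length and 0.03 and 0.22 for read number. Mcm2, Mcm5 and Mcm7, classed as targets without m6A, had 0.19, 0.10 and -0.18 for tail length and -0.12, -0.31 and 0.02 for read number. The non-targets Mcm4 and Pcna had 0.17 and -0.09 for tail length and -0.18 and -0.07 for read number. With 2 or 3 members a class, these values are a description only.

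By root mean square difference of log2 tail length over the 4 libraries, the 5 genes nearest to the members' mean profile (106.6, 120.3, 123.2 and 107.5 nt in WT 1, WT 2, KO 1 and KO 2) were Atp6v0e, Atp5mpl, Ramac, Atp6v1f and Larp1, at 0.0215 to 0.0365. Of the members, Pcna (0.0583) and Mcm6 (0.0640) were nearest to that profile and Mcm5 (0.221) farthest. The values of Atp6v0e, 104.6 and 120.2 nt in WT and 120.5 and 107.5 nt in KO, were highest in WT 2 and KO 1, as were the library medians.

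A list of 76 other replication genes was set beside the members: factors of licensing, origin firing and fork progression, primase and polymerases, clamp loading, single-strand binding and topology, nucleotide supply, and the G1 to S switch. For tail length 36 were tested, 0 passed, and 21 had longer and 15 shorter mean log2 tails in KO. Their median log2 change was 0.05, against 0.01 for all tested genes. KO lay above WT for 7 of the 36 and below for 4 (Ccnd3, Gmnn, Orc2 and Rrm1), against 14.7% and 11.8% of all tested genes. Longer tails in KO were nearest to the threshold for Ccne1, the G1 to S cyclin E1 (86.9 and 91.0 nt in WT, 122.0 and 105.3 nt in KO, log2 change 0.35), followed by Rnaseh2a (0.26), Tyms (0.18) and Nme2 (0.12). On the other side were Rrm1, the large subunit of ribonucleotide reductase (93.8 and 110.0 nt in WT, 84.8 and 79.4 nt in KO, -0.31), Orc2 (-0.30), Ccna2 (-0.22) and Orc6 (-0.23). All 8 had an adjusted p of 0.9998 (limma). By role, values were above 0 for 0 of 4 genes of licensing, 2 of 5 of firing and fork progression, 2 of 2 of primase and polymerases, 5 of 7 of clamp loading, 3 of 5 of single-strand binding and topology, 7 of 9 of nucleotide supply and 2 of 4 of the G1 to S switch, against 51.8% of all tested genes.

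For read number 66 of the 76 were tested and 0 passed, with 28 positive and 38 negative values and a median log2 change of -0.02, against -0.01 for all tested genes. KO lay above WT for 12 genes and below for 15, against 20% and 20.5% of all tested genes. The gene nearest to the threshold was Pclaf, which codes for a protein that binds the Pcna clamp. It had 229.4 and 119.5 RPM in WT and 62.8 and 46.3 RPM in KO, which came to -1.59 on the log2 scale (SE 0.36), with an adjusted p of 0.130 (limma). Without WT 2 the adjusted p was 2.13e-07, and it ranged up to 0.994, the value without KO 2, over the alternatives. With a library left out, its genotype has a single library, which is assumed to vary like the pair of the other genotype. Such a p rests on the spread of that pair and on a spread that limma shares over all tested genes.

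Ticrr, which helps to recruit Cdc45 to licensed origins, had 45.4 and 75.03 RPM in WT and 19.98 and 17.7 RPM in KO (-1.57, adjusted p = 0.195 with limma, 0.00668 without WT 1 and 0.999 without KO 1). Rfc4 and Mcmbp had -0.63 and -0.70. Tk1, thymidine kinase of the salvage pathway, had 83.2 and 91.7 RPM in WT and 178.4 and 158.9 RPM in KO (0.94, adjusted p = 0.248 with limma, 0.0445 without WT 2 and 0.999 without KO 1). Mcm10 (0.90), Cdc45 (0.81) and Rfc5 (0.49) had the next smallest p-values on this side. Cdc45, a partner of the Mcm ring in the active helicase, rested on 7 to 31 reads. By role, values were above 0 for 4 of 10 genes of licensing, 4 of 10 of firing and fork progression, 6 of 11 of primase and polymerases, 6 of 12 of clamp loading, 0 of 6 of single-strand binding and topology, 4 of 9 of nucleotide supply and 4 of 8 of the G1 to S switch, against 49.4% of all tested genes.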

How the data were processed

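The authors enriched poly(A) RNA with oligo(dT) beads and made barcoded direct RNA nanopore libraries for R9 flow cells, per the labels' protocols. The submitters' processing notes name minimap2 2.20; the tool that estimated tails, the build and any filter are not given in the sources used here. The deposited table holds 1 read a row, per the file header, with its Ensembl transcript, gene symbol, library and tail length in nt, with no normalization recorded; 3 reads of length 0 were left out. Libraries were assigned by sample titles.

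Reads were counted and tail medians taken here per symbol and library. Tail length was tested with limma 3.58.1 (lmFit, eBayes with log2 mean read number as trend) in R 4.3.3 on log2 medians, over genes read 20 times or more in every library. For read number, counts were scaled by median of ratios, 0.5 was added, and voom of limma was run on genes averaging 10 reads or more. P-values were adjusted by Benjamini-Hochberg over all tested genes, with a threshold of 0.05. Intervals of medians and shares are exact binomial intervals and cover counting error only. Neighbours in an order were called apart where the mean log2 difference within libraries exceeded its SD and had 1 sign in all 4. Tables were handled with Python 3.11.15, pandas 2.3.3 and scipy 1.17.1.

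Data were simulated with 200 changed genes for each test. The tail test over 1935 genes found 74% of the genes moved by 0.5 (log2) and 99% of those moved by 1. It made 10 false calls. Tail noise was drawn independently for each gene and library, with a spread set by read number. A shift shared by a whole library was not simulated, so these shares need not hold for the real data. The read number test over 4815 genes found 9% of those moved by 1 and 72% of those moved by 2 (dispersion 0.05), beside 1 false call. That dispersion was set in advance and not estimated from these data, so these shares need not hold for them either. The members, the replication list and the tests were chosen with earlier results of these data known. By the rule for named genes, the members, Mov10, Pou5f1, Nanog and Sox2 are named, and from the replication list the 4 genes with the smallest p in each direction of each test, and the 5 genes nearest to the members in tail length. Promoter motifs, the share of reads off the main transcript over 1083 genes, and the genes named for groups that did not overlap were added after values were seen.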

Additional observations from a re-analysis of the deposited data

How the results depend on the processing

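With 2 libraries a genotype, 1 library can turn the sign of a small change, and the depth of 22 to 37 reads limits Mcm2 most. No member was called for tail length or read number under any alternative run. The number of genes called over the whole table did move. For tail length it was 1 with at least 10 reads in each library and ranged from 0 to 2 with a library left out. For read number it was 7 with scaling by total reads, 1 with upper quartile scaling and 96 without a filter, and it ranged from 0 to 451 with a library left out (93 without WT 1, 451 without WT 2), where 1 genotype has a single library and the pair of the other gives the spread.

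The labels number the libraries 1 and 2 in each genotype. Over genes, the differences between libraries 1 and 2 showed almost no correlation between the genotypes (0.0135 over 1935 genes for tail length, 0.0155 over 4815 for read number). Such a correlation does not see a shift common to all genes, and the labels do not explain the numbers. Whether same-numbered libraries share a batch or culture is thus not known. With the replicate block the read number test called 66 genes, Pclaf among them (adjusted p = 0.00419, limma) and no member, and the tail length test called 0.

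The median log2 change in tail length over the members ranged from -0.10 to 0.16 with a library left out. That in read number was 0.042 with scaling by total reads, -0.028 with upper quartile scaling, 0.023 with at least 50 reads on average, -0.066 without a filter, and from -0.084 to 0.024 with a library left out. In tail length Mcm3 had 0.026 with the mean of log2 lengths, 0.010 with the arithmetic mean and 0.017 with weights by read number, and Mcm6 had 0.013 with the mean of log2 lengths and 0.021 with weights. With a library left out, log2 tail changes ranged from -0.22 to 0.16 for Mcm3, -0.18 to 0.38 for Mcm5, -0.10 to 0.095 for Mcm6, -0.20 to 0.020 for Pcna and -0.012 to 0.25 for Nme2. Log2 read number changes ranged from -0.37 to 0.23 for Mcm2, -0.037 to 0.096 for Mcm3 and -0.11 to 0.17 for Mcm7, and scaling by total reads gave Pcna 0.042.

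Tail shares, KO minus WT in percentage points, turned sign with the limits. At 20 and 100 nt the short share was -1.48 for Mcm3 and 0.800 for Mcm5, and the long share 0.711 for Mcm5 and 1.70 for Mcm6. At 50 and 200 nt the short share was -3.27 for Mcm3 and 0.7502 for Pcna, and the long share 2.73 for Mcm3. With a library left out, a choice added after seeing the data, short shares ranged from -3.26 to 4.20 for Mcm3, -1.94 to 0.254 for Mcm6, -2.32 to 0.931 for Mcm7 and -1.49 to 1.04 for Pcna. Long shares ranged from -11.1 to 5.99 for Mcm3, -13.5 to 7.73 for Mcm5 and -15.9 to 0.819 for Mcm7. The cause of these shifts was not tested.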
